A study of Mus musculus with 10 samples.

Results

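The genes described here encode 3 families of guidance cues and their receptors: the ephrins with the Eph receptors, the Slits with the Robo receptors, and the netrins with their receptors. They were defined by mouse gene symbol in the deposited Ribo-seq table, with earlier results of these data already known. All genes of the Epha, Ephb, Efna, Efnb, Slit, Robo, Ntn, Ntng and Unc5 series were taken, together with Dcc and Neo1. This gave 40 of the 22373 genes in the table, and 32 of them had enough ribosome footprints to be tested.

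Guidance cues are proteins that tell a growing axon or a migrating neuron where to turn. Ephrins are bound to the membrane, the A class by a lipid anchor and the B class by a transmembrane segment, so that they act where one cell touches another, and the Eph receptors are receptor tyrosine kinases that usually answer with repulsion. Slits are secreted repellents read by Robo receptors, and netrins are laminin-like cues that attract through Dcc and repel through Unc5 receptors. In the developing neocortex these families are known for roles in radial migration, in the crossing of callosal axons and in the sorting of axons between cortex and thalamus.

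Ribo-seq was performed on neocortex dissected from wild-type CD-1 mice at 4 embryonic stages, E12.5, E14, E15.5 and E17, and on the day of birth (P0), with 2 libraries per stage. Embryonic days are counted from timed mating. Every library pooled the brains of several animals of both sexes, so a replicate is such a pool, and no group was treated or mutant. Libraries held between 7544404 counts (P0 replicate 1) and 36129988 counts (E14 replicate 2). Values are given as CPM, the footprints of a gene per 1000000 footprints of the library, computed from the deposited counts with library sizes scaled by TMM factors. Whether those counts are plain reads or length-corrected estimates per gene is not stated. A value pair such as "17.7 and 18.1" gives replicate 1 and replicate 2 in that order. Changes between stages are log2 fold changes of the later over the earlier stage from limma-voom, with the Benjamini-Hochberg adjusted p over all 13484 genes tested. Calls needed an adjusted p under 0.05 together with a log2 fold change of at least 0.32 in size, and "rose" and "fell" are used only of called changes, whose sizes are on the log2 scale unless a fold is named. The tissue is a mixture of cells, so that fewer cells of a type and fewer footprints per cell cannot be told apart. The 10 neocortex marker genes reported here, among them Emx1, Eomes and Tbr1, were all detected, with at least 5001 footprints over the 10 libraries.

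Footprints of 30 of the 32 genes tested differed across the 5 stages by the moderated F test, against 63.8% of all genes tested. The 2 that did not pass were Efna2 (adjusted p = 0.201) and Ntng2 (adjusted p = 0.0733). The highest stage mean fell at E12.5 for 16 of the 32 genes, at E17 for 11, at P0 for 4 and at E14 for 1, and no gene was highest at E15.5. Over all genes tested, 31.7% were highest at E12.5, 33.2% at P0 and 12% at E17. The lowest stage was P0 for 18 of the 32 genes. Of the 16 genes highest at E12.5, 12 had both E12.5 libraries above all 8 other libraries, and the same held at E17 for 7 of 11. The shares of all genes with such separation, or with P0 as the lowest stage, were not computed, so these counts have no background beside them.

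**Figure D1:**
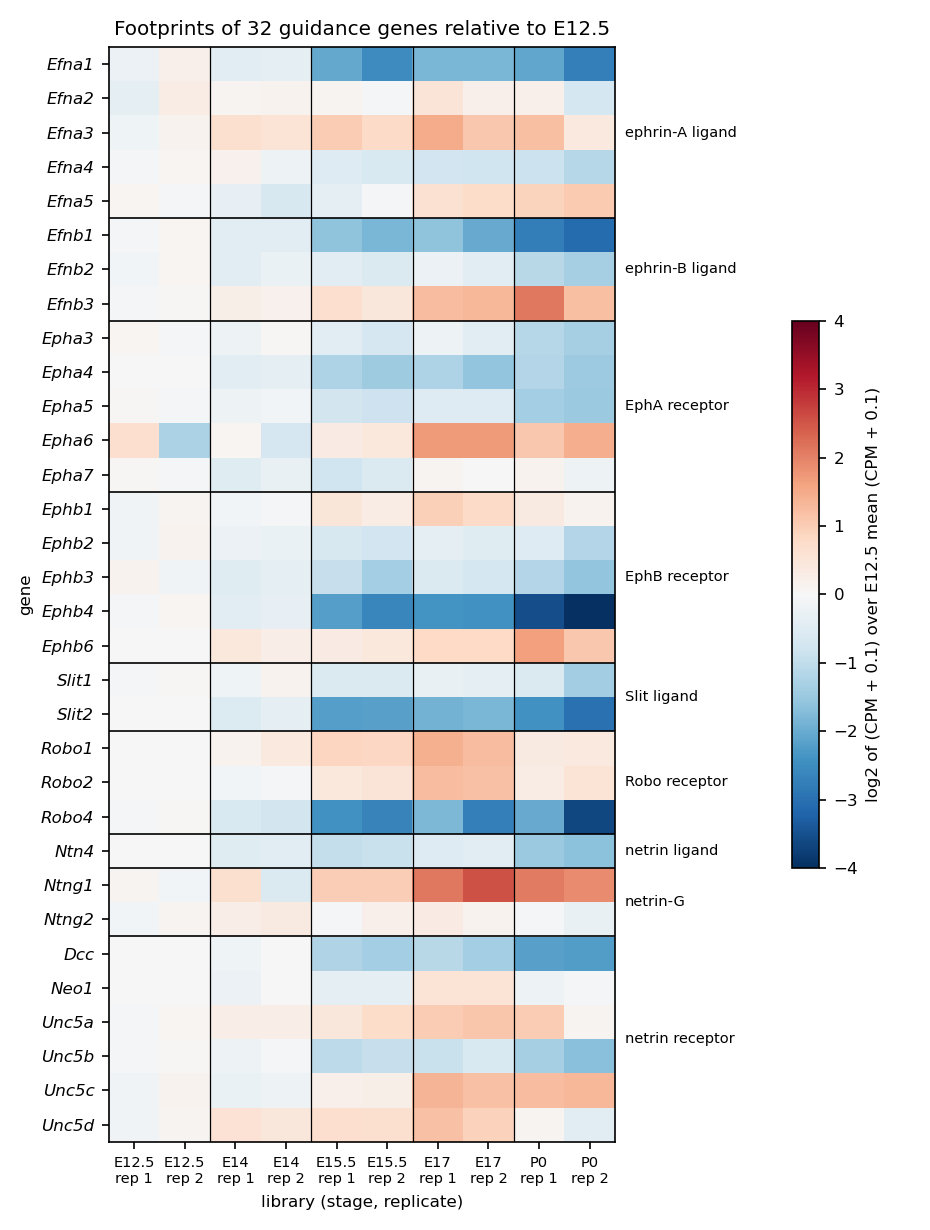
Heat map of the 32 tested genes (rows, grouped by role) in the 10 libraries (columns), coloured by log2 of CPM over the mean CPM at E12.5 after 0.1 CPM was added to both. Blue rows such as Ephb4, Robo4, Slit2 and Efnb1 darken from E15.5 on, red rows such as Ntng1 and Epha6 redden at E17, and Robo1, Robo2 and Unc5d are reddest at E17 and paler at P0.

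From E12.5 to E14, 0 of the 32 genes were called, while 0.638% of all genes tested were. At an unadjusted p under 0.05 there were 9, the edgeR quasi-likelihood test also called 0, and so did DESeq2, where 15 of the 32 had no adjusted p. Their median log2 fold change was -0.10, and that of all genes -0.00.

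From E14 to E15.5, 15 of the 32 genes (46.9%) were called, 4 higher and 11 lower, where 36.1% of all genes were called, 16.5% higher and 19.6% lower. The 4 that rose were Ephb1, Ntng1, Robo1 and Robo2, and the 11 that fell were Dcc, Efna1, Efna4, Efnb1, Epha3, Epha4, Epha5, Ephb4, Robo4, Slit2 and Unc5b. The median log2 fold change was -0.29 against -0.01 over all genes. With total counts as library sizes the median of all genes shifted to 0.29 and that of the 32 genes to 0.01. The split became 6 higher and 8 lower, where 32.7% of all genes were called higher and 12.3% lower. The 32 genes stayed 0.28 below the median of all genes. DESeq2 called 9 genes (29.5% of all genes), and without E15.5 replicate 1 or E15.5 replicate 2 the count was 8 or 9 (20.3% or 20.8% of all genes).

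From E15.5 to E17, 7 of the 32 genes were called (9.04% of all genes) and all 7 were higher: Efna5, Epha7, Neo1, Ntng1, Robo1, Robo2 and Unc5c. Among all genes 5.61% were called higher and 3.43% lower. In 24 of the 32 genes both E17 libraries lay above both E15.5 libraries, as they did in 34% of all genes tested, and 1 gene had both below. The median log2 fold change was 0.41, beside 0.00 over all genes, and it was 0.47 with total counts as library sizes. Leaving out any 1 of the 2 E15.5 or 2 E17 libraries left 0 calls, although 8 to 10 genes still had an unadjusted p under 0.05, and those fits also called few of all genes, 18 without E17 replicate 1 and 0 in the other 3. Leaving out either P0 library gave 12, all higher, where 20.8% and 20.9% of all genes were called.

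From E17 to P0 the direction was the opposite. Of the 32 genes 14 were called (20.5% of all genes), and all 14 were lower: Dcc, Efnb1, Efnb2, Epha3, Epha5, Ephb1, Ephb4, Neo1, Ntn4, Robo1, Robo2, Slit1, Slit2 and Unc5d. Over all genes 9.46% were called higher and 11.1% lower. Both P0 libraries lay below both E17 libraries in 23 of the 32 genes and in 28.9% of all genes tested. The median log2 fold change of -0.80 stood beside -0.02 over all genes. The P0 libraries differed most from each other. Over the 32 genes the SD of the log2 ratio between replicates was 0.33, against 0.17 to 0.26 at the other stages. Over 4559 genes with many footprints it was 0.53, against 0.13 to 0.22. The calls from E17 to P0 rested on the spread shared over all stages. Fitted on the 4 E17 and P0 libraries alone, 0 of the 32 genes were called, as were 0 of all 13484 genes, and 16 of the 32 had an unadjusted p under 0.05. The count was 7 without E17 replicate 1 (4.11% of all genes called) and 21 without P0 replicate 1 (31.97%). Leaving out P0 replicate 2 gave 11 calls, 9 of them lower (32.4% of all genes called).

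Over the whole span from E12.5 to P0, 24 of the 32 genes (75%) were called, 8 higher and 16 lower, where 62.1% of all genes were called, 30.1% higher and 32% lower. The 8 that rose were Efna5, Efnb3, Epha6, Ephb6, Ntng1, Robo1, Robo2 and Unc5c. With total counts as library sizes, which shifted the median of all genes to 0.51, the split was 13 higher and 15 lower. On that scale 47.8% of all genes were called higher and 18.6% lower. The 5 added rises were Efna3, Epha7, Ephb1, Neo1 and Unc5a, of which Epha7 and Neo1 turned from slightly negative to positive, and the fall of Ephb2 was not called on that scale.

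**Figure D2:**
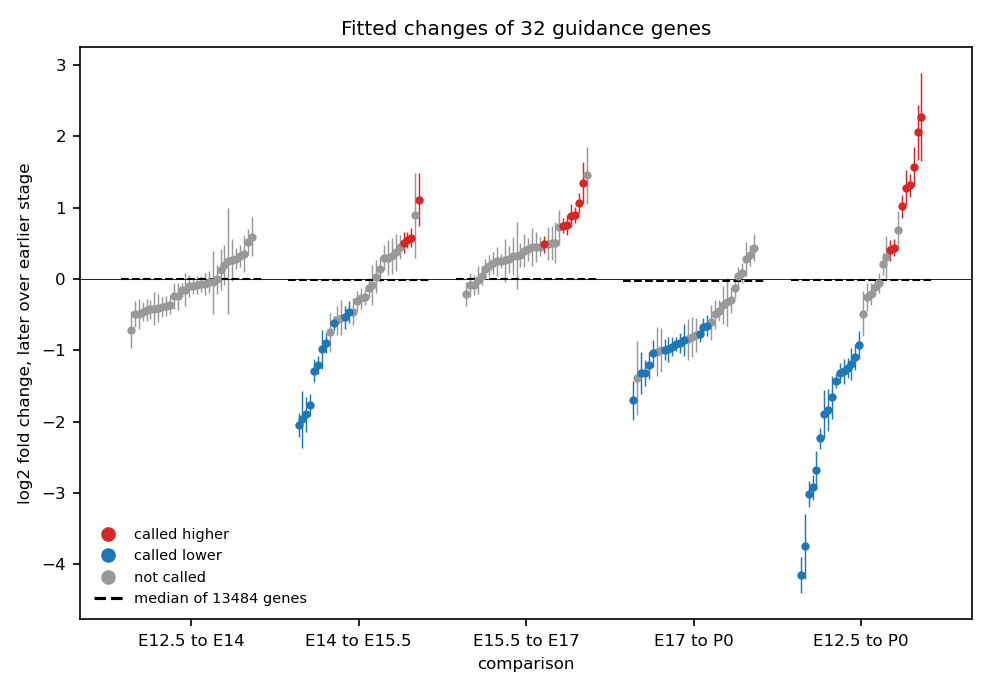
Fitted log2 fold changes (vertical axis, later over earlier stage) of the 32 genes in the 5 comparisons (horizontal axis), ordered by size within each, with error bars of 1 SE. Red and blue points were called higher and lower, grey points were not called, and the dashed line is the median of the 13484 genes tested. The 7 called points from E15.5 to E17 lie above 0 and the 14 from E17 to P0 lie below it.

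Of the 5 ephrin-A ligands, Efna1 and Efna4 fell from E12.5 to P0, Efna5 rose, and Efna2 and Efna3 were not called. Efna1 (ENSMUSG00000027954), a ligand first found in endothelial cells, had a CPM of 7.21 and 9.84 (E12.5), 6.18 and 6.59 (E14), 1.99 and 1.39 (E15.5), 2.32 and 2.33 (E17), 1.96 and 1.19 (P0). All 4 libraries of E12.5 and E14 lay above all 6 later ones. It fell by 1.90 (SE 0.24, adjusted p = 0.000689) from E14 to E15.5 and fell by 2.68 (SE 0.26, adjusted p = 4.85e-05) over the whole span, a 6.41-fold fall that was 4.26-fold without P0 replicate 2. Efna4 (ENSMUSG00000028040) had a CPM of 5.89 and 6.62 (E12.5), 6.98 and 5.39 (E14), 4.31 and 4.05 (E15.5), 3.65 and 3.57 (E17), 3.37 and 2.79 (P0). The 4 earliest libraries again lay above the 6 later ones, and the fall from E14 to E15.5 was -0.54 (SE 0.16, adjusted p = 0.0301). That call was lost in DESeq2 (adjusted p = 0.106) and with total counts as library sizes (adjusted p = 0.229), and without E14 replicate 1 or any 1 of the E15.5 and E17 libraries (adjusted p = 0.0531 to 0.159), while the fall over the whole span was -1.09 (SE 0.18, adjusted p = 0.000856).

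Efna5 (ENSMUSG00000048915), known for graded expression that sorts topographic projections, rose late. Its CPM was 4.51 and 4.04 (E12.5), 3.40 and 2.73 (E14), 3.34 and 4.18 (E15.5), 6.61 and 7.13 (E17), 7.94 and 8.997 (P0). Both P0 libraries were the highest of the 10 and both E17 libraries came next. It rose by 0.89 (SE 0.16, adjusted p = 0.0179) from E15.5 to E17 and by 1.02 (SE 0.17, adjusted p = 0.000827) from E12.5 to P0. Efna3 had mean CPM (± SD, n = 2) of 4.80 ± 0.722 (E12.5), 7.32 ± 0.398 (E14), 8.96 ± 1.14 (E15.5), 11.9 ± 2.22 (E17), 8.79 ± 3.42 (P0), and its change from E12.5 to P0 was 0.68 (SE 0.28, adjusted p = 0.0594). Efna2 had 3.98 ± 1.35 (E12.5), 4.35 ± 0.0851 (E14), 4.08 ± 0.279 (E15.5), 5.13 ± 0.780 (E17), 3.48 ± 1.54 (P0), with no call in any step.

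Efna1, Efna3 and Efna4 are neighbours in the genome. In RefSeq (GRCm38.p6) they lie on the minus strand of chromosome 3 within 66299 bases, as Efna1 (chr3:89271730-89280951), Efna3 (chr3:89313899-89322939) and Efna4 (chr3:89333393-89338028). They are the only protein-coding genes among the 7 genes in that span, the other 4 being long noncoding RNAs, and one of those, Gm15998, lies inside the span of Efna3. The 250 bases before the outermost annotated start of each gene are shown because the genes share a locus, while Efna1 and Efna4 fell and Efna3 was not called. They are printed 5′ to 3′ on the minus strand, with capitals marking a GC box (GGGCGG or its reverse complement CCGCCC) or an E-box of the form CAGATG (or CATCTG).
Efna1 (chr3:89280952-89281201): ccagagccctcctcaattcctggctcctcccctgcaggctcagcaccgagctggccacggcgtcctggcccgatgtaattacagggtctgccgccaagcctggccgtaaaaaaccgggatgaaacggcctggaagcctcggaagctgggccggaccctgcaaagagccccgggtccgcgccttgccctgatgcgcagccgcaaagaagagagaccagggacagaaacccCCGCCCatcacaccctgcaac
Efna3 (chr3:89322940-89323189): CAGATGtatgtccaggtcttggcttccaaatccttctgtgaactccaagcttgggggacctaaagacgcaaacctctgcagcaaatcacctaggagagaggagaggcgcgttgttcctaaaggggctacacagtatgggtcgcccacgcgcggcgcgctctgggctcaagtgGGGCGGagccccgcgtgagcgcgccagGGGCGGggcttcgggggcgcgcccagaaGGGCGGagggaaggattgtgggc
Efna4 (chr3:89338029-89338278): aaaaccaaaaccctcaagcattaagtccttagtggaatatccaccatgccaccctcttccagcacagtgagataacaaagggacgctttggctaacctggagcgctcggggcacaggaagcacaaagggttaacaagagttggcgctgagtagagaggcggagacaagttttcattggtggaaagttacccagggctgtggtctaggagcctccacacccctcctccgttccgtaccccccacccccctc
These starts are not the only ones annotated: a second window of Efna1 held 2 GC boxes and 18 CG dinucleotides, and a second one of Efna3 held 3 GC boxes and 31 CG dinucleotides, neither with an E-box. At the outermost starts, the Efna1 window held 1 GC box and 16 CG dinucleotides, that of Efna3 held 3 GC boxes, 1 E-box and 19 CG dinucleotides, and that of Efna4 held neither motif and 7 CG dinucleotides. No motif overlapped another in these windows. Across 32851 RefSeq windows of the same length, noncoding genes included, 32.7% held a GC box and 14.4% held this E-box, and the median number of CG dinucleotides was 6. Of the 40 guidance genes 35 matched a RefSeq promoter, with 40 windows in all, of which 27 (67.5%) held a GC box and 4 (10%) the E-box. These are matches of letters in a window and were not measured as binding sites.

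The 3 ephrin-B ligands split as well, with Efnb1 and Efnb2 falling and Efnb3 rising from E12.5 to P0. Efnb1 (ENSMUSG00000031217), a ligand that also signals back into the cell that carries it, had a CPM of 36.5 and 40.5 (E12.5), 28.1 and 28.9 (E14), 12.6 and 10.7 (E15.5), 12.6 and 9.54 (E17), 5.55 and 4.44 (P0). Its libraries did not overlap between E12.5, E14 and P0, and those of E15.5 and E17 lay between E14 and P0. It fell by 1.29 (SE 0.16, adjusted p = 0.000564) from E14 to E15.5, fell by 1.21 (SE 0.19, adjusted p = 0.00479) from E17 to P0 and fell by 3.01 (SE 0.18, adjusted p = 3.34e-06) over the whole span. Efnb2 (ENSMUSG00000001300), known in arteries and in neural tissue, had a CPM of 37.2 and 42.4 (E12.5), 28.8 and 33.1 (E14), 29.7 and 26.9 (E15.5), 33.6 and 29.0 (E17), 18.3 and 15.9 (P0). The 8 embryonic libraries lay between 26.9 and 42.4, and both P0 libraries lay below them. The step from E17 to P0 was a fall of -0.90 (SE 0.14, adjusted p = 0.00489), and that from E14 to E15.5 was -0.13 (SE 0.13, adjusted p = 0.505). Efnb3 (ENSMUSG00000003934), a midline barrier for corticospinal axons, had a CPM of 4.62 and 4.94 (E12.5), 5.65 and 5.39 (E14), 7.62 and 6.63 (E15.5), 11.5 and 12.2 (E17), 20.9 and 11.2 (P0). The stage means rank in the order of age, although P0 replicate 2 lay below E17 replicate 1 and the 2 P0 libraries were far apart. It rose by 1.57 (SE 0.27, adjusted p = 0.00108) over the whole span, and none of its adjacent steps was called. Within a library, the ratio of Efnb3 to Efnb1 counts, which needs no library scaling, was 0.127 and 0.122 at E12.5, 0.604 and 0.618 at E15.5, then 3.76 and 2.53 at P0. Coding lengths were not used here, so such a ratio shows the change between stages and not which gene was translated more. The pairs given as ratios were picked after their values were seen.

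Of the 5 EphA receptors tested, Epha3, Epha4 and Epha5 fell from E12.5 to P0, Epha6 rose and Epha7 was not called. Epha4 (ENSMUSG00000026235), a receptor that binds ephrins of both classes, had a CPM of 182 and 183 (E12.5), 134 and 138 (E14), 77.8 and 68.6 (E15.5), 77.7 and 61.2 (E17), 80.4 and 67.2 (P0). E12.5 and E14 each stood apart, and the 6 libraries from E15.5 to P0 overlapped at 61.2 to 80.4. The fall from E14 to E15.5 was -0.90 (SE 0.14, adjusted p = 0.00163) and that over the whole span -1.32 (SE 0.14, adjusted p = 7.11e-05). Epha5 (ENSMUSG00000029245), a receptor for ephrin-A ligands in topographic maps, had a CPM of 127 and 118 (E12.5), 106 and 114 (E14), 74.2 and 68.9 (E15.5), 85.1 and 85.5 (E17), 47.4 and 43.5 (P0). E12.5 was highest and P0 lowest, with both E17 libraries between E14 and E15.5. It fell by 0.62 (SE 0.095, adjusted p = 0.00163) from E14 to E15.5 and fell by 0.91 (SE 0.098, adjusted p = 0.00159) from E17 to P0. Epha3 (ENSMUSG00000052504), of the same class, had a CPM of 9.19 and 8.38 (E12.5), 7.55 and 9.06 (E14), 6.51 and 5.53 (E15.5), 7.59 and 6.53 (E17), 3.92 and 3.41 (P0). Both P0 libraries lay below the 8 others, which spread from 5.53 to 9.19. Its fall from E17 to P0 was -0.99 (SE 0.17, adjusted p = 0.00683), while that from E14 to E15.5, -0.46 (SE 0.15, adjusted p = 0.043), was lost with total counts as library sizes (adjusted p = 0.424), in DESeq2 (adjusted p = 0.124) and in 7 of the 10 fits that left out 1 library (adjusted p = 0.0594 to 0.252).

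Epha7 (ENSMUSG00000028289), known for repelling thalamic and cortical axons, was lowest at E15.5. Its CPM was 19.4 and 18.2 (E12.5), 13.5 and 15.1 (E14), 10.9 and 12.4 (E15.5), 20.3 and 18.8 (E17), 20.8 and 16.3 (P0). The E15.5 libraries were the lowest of the 10, and those of E12.5, E17 and P0 overlapped. The rise from E15.5 to E17 was 0.75 (SE 0.14, adjusted p = 0.019), and E12.5 to P0 gave -0.06 (SE 0.14, adjusted p = 0.732). Epha6 (ENSMUSG00000055540) had few footprints, with 13 and 3 at E12.5 and 9 and 55 at P0, and a CPM of 0.715 and 0.112 (E12.5), 0.442 and 0.222 (E14), 0.542 and 0.591 (E15.5), 1.56 and 1.58 (E17), 0.979 and 1.31 (P0). The 4 libraries of E17 and P0 were the highest. It rose by 2.27 (SE 0.61, adjusted p = 0.0115) over the whole span, a call lost in edgeR (adjusted p = 0.0642), in DESeq2 (adjusted p = 0.0953), on the 4 E12.5 and P0 libraries alone (adjusted p = 0.0728), without P0 replicate 2 (adjusted p = 0.0745) and without E12.5 replicate 2 (adjusted p = 0.158). The size rested on the E12.5 libraries, at 0.77 without E12.5 replicate 2 and 3.27 without E12.5 replicate 1.

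Of the 5 EphB receptors, Ephb2, Ephb3 and Ephb4 fell from E12.5 to P0, Ephb6 rose and Ephb1 was not called. Ephb4 (ENSMUSG00000029710), the venous partner of ephrin-B2, had the largest fall of all 32 genes. Its CPM was 10.6 and 11.7 (E12.5), 8.35 and 8.78 (E14), 2.35 and 1.73 (E15.5), 2.06 and 1.99 (E17), 0.870 and 0.573 (P0). Its libraries did not overlap between E12.5, E14, the pair E15.5 and E17, and P0. It fell by 2.05 (SE 0.17, adjusted p = 0.000124) from E14 to E15.5, fell by 1.70 (SE 0.27, adjusted p = 0.00513) from E17 to P0 and fell by 4.15 (SE 0.25, adjusted p = 3.48e-06) over the whole span, 17.8-fold, with 8 and 24 footprints left at P0. Ephb1 (ENSMUSG00000032537), a receptor that steers ipsilateral retinal axons, had a CPM of 6.38 and 7.63 (E12.5), 6.45 and 6.66 (E14), 9.94 and 8.70 (E15.5), 13.6 and 11.98 (E17), 9.03 and 7.66 (P0). The E17 libraries were the highest, and the higher E12.5 library, at 7.63, lay just below the lower P0 library, at 7.66. It rose by 0.51 (SE 0.15, adjusted p = 0.0257) from E14 to E15.5 and fell by 0.65 (SE 0.14, adjusted p = 0.0165) from E17 to P0, so that the whole span gave 0.21 (SE 0.15, adjusted p = 0.267). The rise was lost in DESeq2 (adjusted p = 0.0785) and without any 1 of the E14 or E15.5 libraries (adjusted p = 0.0563 to 0.173). The ratio of Ephb1 to Ephb4 counts was 0.604 and 0.652 at E12.5 and 10.4 and 13.4 at P0.

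Ephb3 (ENSMUSG00000005958) was sparse, with a CPM of 1.49 and 1.20 (E12.5), 0.928 and 1.01 (E14), 0.663 and 0.464 (E15.5), 0.857 and 0.788 (E17), 0.544 and 0.382 (P0) and 5 and 16 footprints at P0. Both E12.5 libraries were highest, and the fall over the whole span was -1.66 (SE 0.30, adjusted p = 0.0015), lost without P0 replicate 2 (adjusted p = 0.123). Ephb2, which shares ligands with Ephb3, had mean CPM (± SD, n = 2) of 23.8 ± 3.45 (E12.5), 20.1 ± 0.492 (E14), 14.6 ± 0.783 (E15.5), 17.6 ± 0.983 (E17), 13.6 ± 4.47 (P0), and fell by 0.93 (SE 0.20, adjusted p = 0.00398) over the whole span. Ephb6, a family member that lacks kinase activity, had 0.954 ± 0.0264 (E12.5), 1.249 ± 0.108 (E14), 1.27 ± 0.0521 (E15.5), 1.74 ± 0.0138 (E17), 2.65 ± 0.712 (P0). Ephb6 rose by 1.28 (SE 0.24, adjusted p = 0.00192) over the whole span with no adjacent step called.

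**Figure D3:**
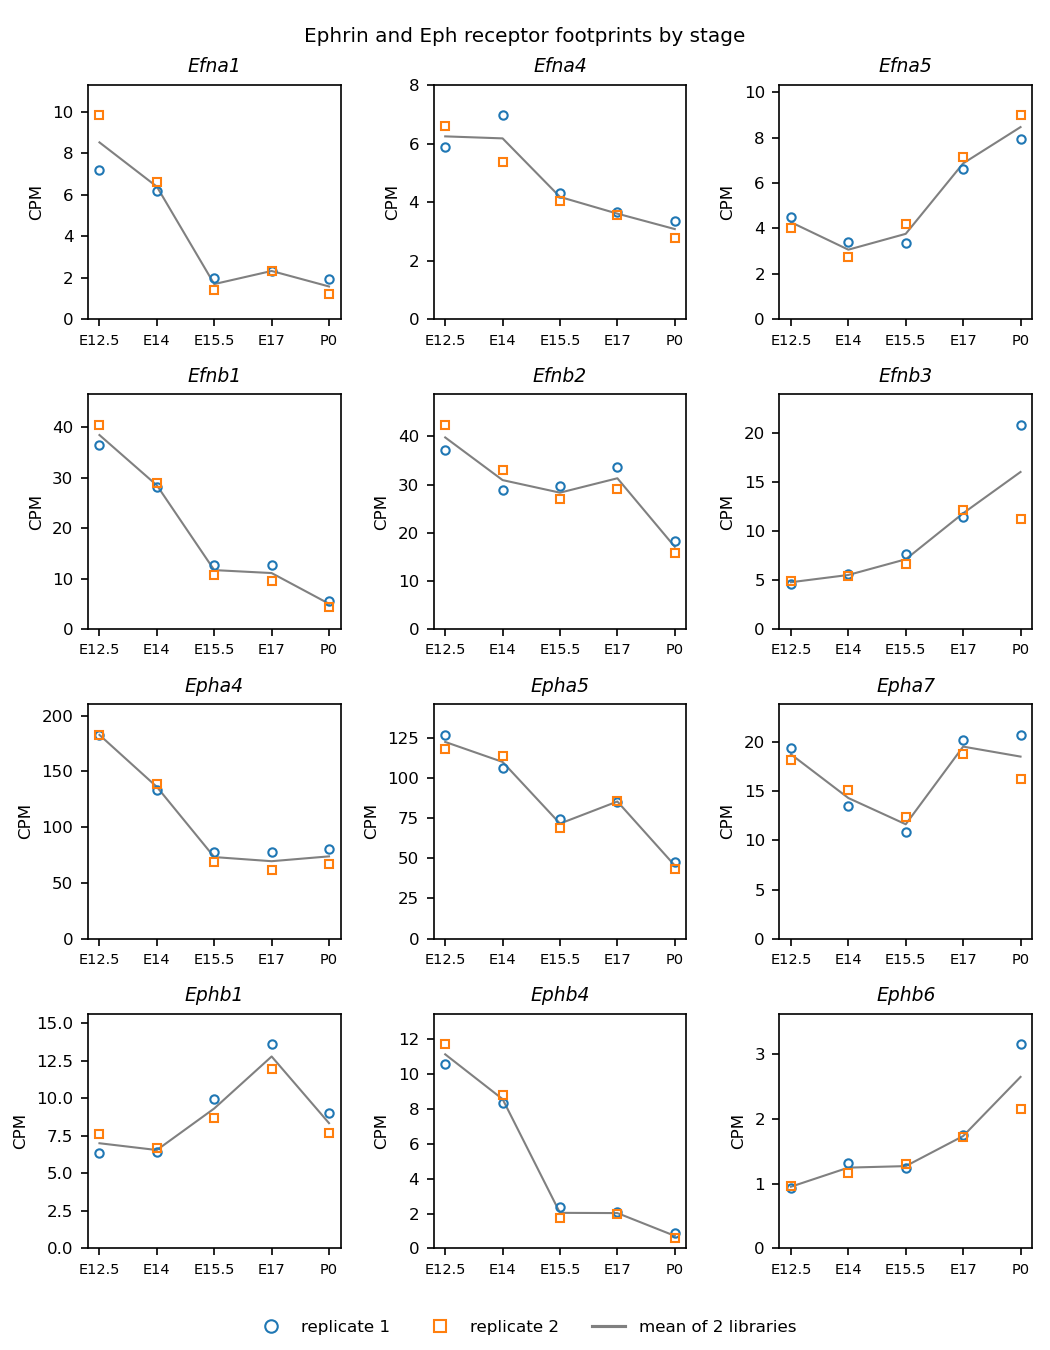
CPM (vertical axes, each from 0) of 12 ephrin and Eph genes at the 5 stages (horizontal axes), with circles for replicate 1, squares for replicate 2 and a line through the mean of the 2. Efna1, Efnb1, Epha4 and Ephb4 drop between E14 and E15.5, Efnb3 and Ephb6 climb to P0 with replicates far apart there, and Ephb1 peaks at E17.

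Both Slit ligands tested fell from E12.5 to P0. Slit2 (ENSMUSG00000031558), a secreted repellent that keeps callosal and thalamic axons from straying, had a CPM of 13.1 and 13.2 (E12.5), 8.92 and 10.2 (E14), 2.77 and 2.87 (E15.5), 3.49 and 3.64 (E17), 2.39 and 1.58 (P0). E12.5, E14, E17 and P0 did not overlap, and E15.5 lay between E17 and P0. Slit2 fell by 1.76 (SE 0.15, adjusted p = 0.000148) from E14 to E15.5, fell by 1.04 (SE 0.19, adjusted p = 0.00828) from E17 to P0 and fell by 2.92 (SE 0.18, adjusted p = 3.54e-06) over the whole span, a 7.57-fold fall. Slit1 (ENSMUSG00000025020), its paralogue in the forebrain, had a CPM of 8.03 and 8.71 (E12.5), 7.47 and 9.25 (E14), 5.604 and 5.57 (E15.5), 6.76 and 6.50 (E17), 5.55 and 3.10 (P0). The E12.5 and E14 libraries overlapped and lay above the rest, and the P0 libraries were the farthest apart. Slit1 fell by 1.19 (SE 0.23, adjusted p = 0.00198) over the whole span, a change that was -0.59 (adjusted p = 0.0378) without P0 replicate 2, and the step from E14 to E15.5 was -0.58 (SE 0.20, adjusted p = 0.0561). The fall from E17 to P0, -0.85 (SE 0.23, adjusted p = 0.0323), was lost in edgeR (adjusted p = 0.0776), in DESeq2 (adjusted p = 0.145) and in 7 of the 10 fits that left out 1 library, where it was -0.25 (adjusted p = 0.40) without P0 replicate 2. The ratio of Slit1 to Slit2 counts was 0.613 and 0.658 at E12.5 and 2.02 and 1.94 at E15.5.

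Robo1 and Robo2, the receptors that read Slits in neurons, rose in both steps between E14 and E17 and fell from E17 to P0. Robo2 (ENSMUSG00000052516) had a CPM of 14.6 and 14.9 (E12.5), 13.6 and 14.4 (E14), 19.9 and 21.1 (E15.5), 35.1 and 33.5 (E17), 18.2 and 21.4 (P0). The 4 libraries of E12.5 and E14 were the lowest, both E17 libraries stood above all others, and E15.5 and P0 overlapped in between. It rose by 0.55 (SE 0.11, adjusted p = 0.00559) from E14 to E15.5 and by 0.74 (SE 0.10, adjusted p = 0.0092) from E15.5 to E17, then fell by 0.78 (SE 0.11, adjusted p = 0.00326) to P0. Robo1 (ENSMUSG00000022883) had a CPM of 3.19 and 3.22 (E12.5), 3.58 and 4.22 (E14), 5.88 and 5.83 (E15.5), 8.76 and 7.66 (E17), 4.13 and 4.27 (P0). Its E17 libraries were the highest, its E15.5 libraries came next, and P0 overlapped with E14. It rose by 0.58 (SE 0.13, adjusted p = 0.0107) and 0.49 (SE 0.12, adjusted p = 0.046) in the same steps and fell by 0.95 (SE 0.13, adjusted p = 0.00335) to P0. The second of these rises was lost in edgeR (adjusted p = 0.0622), in DESeq2 (adjusted p = 0.202) and with a replicate block (adjusted p = 0.078). It was also lost with no filter beyond 1 count (adjusted p = 0.0899) and in 8 of the 10 fits that left out 1 library. DESeq2 did not call the first rise either (adjusted p = 0.0744), nor did the fits without E14 replicate 1 or either E15.5 library. From E12.5 to P0, Robo2 rose by 0.44 (SE 0.11, adjusted p = 0.00916) and Robo1 by 0.40 (SE 0.15, adjusted p = 0.0481), and the Robo2 call was lost without P0 replicate 2 (adjusted p = 0.0541), with sample quality weights (adjusted p = 0.0786) and on the 4 libraries of those stages alone (adjusted p = 0.0875). The Robo1 call was lost in DESeq2 (adjusted p = 0.184) and in 9 of the 10 fits that left out 1 library, all but that without P0 replicate 1. The ratio of Robo2 to Slit2 counts was 1.113 and 1.124 at E12.5, 7.17 and 7.35 at E15.5, then 10.1 and 9.19 at E17.

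Robo4 (ENSMUSG00000032125), the receptor of this family known from endothelial cells, was highest at E12.5. Its CPM was 3.69 and 3.89 (E12.5), 2.43 and 2.22 (E14), 0.633 and 0.507 (E15.5), 1.02 and 0.488 (E17), 0.870 and 0.215 (P0), from 67 and 104 footprints at E12.5 to 8 and 9 at P0. The 4 libraries of E12.5 and E14 lay above all 6 later ones, which overlapped. It fell by 1.97 (SE 0.40, adjusted p = 0.00607) from E14 to E15.5 and fell by 3.74 (SE 0.45, adjusted p = 0.00016) over the whole span, a 13.4-fold fall that rested on P0 replicate 2 and was 4.13-fold (adjusted p = 0.018) without it. The step from E14 to E15.5 was lost without E15.5 replicate 1 (adjusted p = 0.0581).

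Ntn4 (ENSMUSG00000020019), a netrin of basement membranes, was the only netrin ligand tested. Its CPM was 1.10 and 1.08 (E12.5), 0.751 and 0.792 (E14), 0.512 and 0.549 (E15.5), 0.730 and 0.788 (E17), 0.326 and 0.286 (P0), with 3 and 12 footprints at P0. E12.5 was highest and P0 lowest without overlap. It fell by 1.84 (SE 0.29, adjusted p = 0.000713) over the whole span, lost without P0 replicate 2 (adjusted p = 0.0581), and fell by 1.31 (SE 0.29, adjusted p = 0.0181) from E17 to P0, lost in DESeq2 (adjusted p = 0.187). The netrin-G genes encode lipid-anchored relatives that do not bind Dcc but pair with postsynaptic adhesion proteins. Ntng1 (ENSMUSG00000059857), whose partner is Lrrc4c, had a CPM of 1.27 and 1.08 (E12.5), 1.90 and 0.761 (E14), 2.44 and 2.45 (E15.5), 5.37 and 7.40 (E17), 5.33 and 4.68 (P0). The 4 libraries of E17 and P0 were above all others, and the 2 E14 libraries were far apart. It rose by 1.35 (SE 0.28, adjusted p = 0.0258) from E15.5 to E17 and by 2.06 (SE 0.38, adjusted p = 0.00177) over the whole span, a 4.16-fold rise. Its rise from E14 to E15.5, 1.11 (SE 0.37, adjusted p = 0.0459), was lost in edgeR (adjusted p = 0.0884), in DESeq2 (adjusted p = 0.135) and in 7 of the 10 fits that left out 1 library, where it was 0.36 (adjusted p = 0.441) without E14 replicate 2. Ntng2 had mean CPM (± SD, n = 2) of 13.3 ± 1.46 (E12.5), 16.6 ± 0.799 (E14), 13.9 ± 1.87 (E15.5), 15.7 ± 1.67 (E17), 11.8 ± 1.32 (P0) and was called in no step.

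Among the 6 netrin receptors, Dcc and Unc5b fell from E12.5 to P0, Unc5c rose, and Neo1, Unc5a and Unc5d were not called. Dcc (ENSMUSG00000060534), the receptor for attraction to netrin 1, had a CPM of 17.7 and 18.1 (E12.5), 15.7 and 18.0 (E14), 7.74 and 6.88 (E15.5), 8.19 and 6.95 (E17), 3.92 and 3.75 (P0). The E12.5 and E14 libraries overlapped, those of E15.5 and E17 overlapped at a lower level, and P0 was lowest. Dcc fell by 1.20 (SE 0.13, adjusted p = 0.000317) from E14 to E15.5 and fell by 0.99 (SE 0.15, adjusted p = 0.00472) from E17 to P0, 4.69-fold over the whole span at -2.23 (SE 0.15, adjusted p = 5.51e-06) on the log2 scale. Neo1 (ENSMUSG00000032340), the paralogue of Dcc that also binds repulsive guidance molecules, had a CPM of 15.6 and 15.1 (E12.5), 13.1 and 15.7 (E14), 12.1 and 12.1 (E15.5), 22.4 and 22.7 (E17), 13.5 and 14.6 (P0). Both E17 libraries stood above the other 8. It rose by 0.90 (SE 0.11, adjusted p = 0.00743) from E15.5 to E17 and fell by 0.67 (SE 0.12, adjusted p = 0.00676) to P0, which gave -0.12 (SE 0.12, adjusted p = 0.414) over the whole span. The ratio of Neo1 to Dcc counts was 0.885 and 0.837 at E12.5 and 3.44 and 3.90 at P0.

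The Unc5 receptors, which turn the response to netrins into repulsion, gave 1 rise, 1 fall and 2 genes without a call over the whole span. Unc5c (ENSMUSG00000059921) had a CPM of 1.76 and 2.17 (E12.5), 1.63 and 1.71 (E14), 2.29 and 2.32 (E15.5), 5.18 and 4.51 (E17), 4.79 and 5.04 (P0). The 4 libraries of E17 and P0 overlapped and lay above the 6 earlier ones. It rose by 1.07 (SE 0.14, adjusted p = 0.00868) from E15.5 to E17 and by 1.31 (SE 0.16, adjusted p = 0.000186) over the whole span. Unc5d (ENSMUSG00000063626), which also binds Flrt2 on other cells, had a CPM of 7.81 and 9.31 (E12.5), 12.9 and 11.7 (E14), 13.6 and 13.3 (E15.5), 19.5 and 16.5 (E17), 9.25 and 6.32 (P0). The E17 libraries were the highest, and those of E12.5 and P0 overlapped. Its fall from E17 to P0, -1.31 (SE 0.18, adjusted p = 0.00316), was its only call. Unc5b (ENSMUSG00000020099), a receptor known from vessels as well as axons, had a CPM of 0.935 and 1.01 (E12.5), 0.839 and 0.919 (E14), 0.422 and 0.464 (E15.5), 0.476 and 0.601 (E17), 0.326 and 0.239 (P0), with 3 and 10 footprints at P0. The 4 libraries of E12.5 and E14 lay above the 6 later ones. It fell by 0.99 (SE 0.27, adjusted p = 0.0225) from E14 to E15.5, lost in DESeq2 (adjusted p = 0.257), with total counts as library sizes (adjusted p = 0.0731) and without any 1 of the E14 or E15.5 libraries (adjusted p = 0.0529 to 0.161), and fell by 1.89 (SE 0.33, adjusted p = 0.00125) over the whole span, lost without P0 replicate 2 (adjusted p = 0.0961). Unc5a had mean CPM (± SD, n = 2) of 1.34 ± 0.110 (E12.5), 1.64 ± 0.00958 (E14), 2.10 ± 0.321 (E15.5), 2.91 ± 0.125 (E17), 2.14 ± 0.970 (P0) and passed the F test (adjusted p = 0.0451) without a called step.

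**Figure D4:**
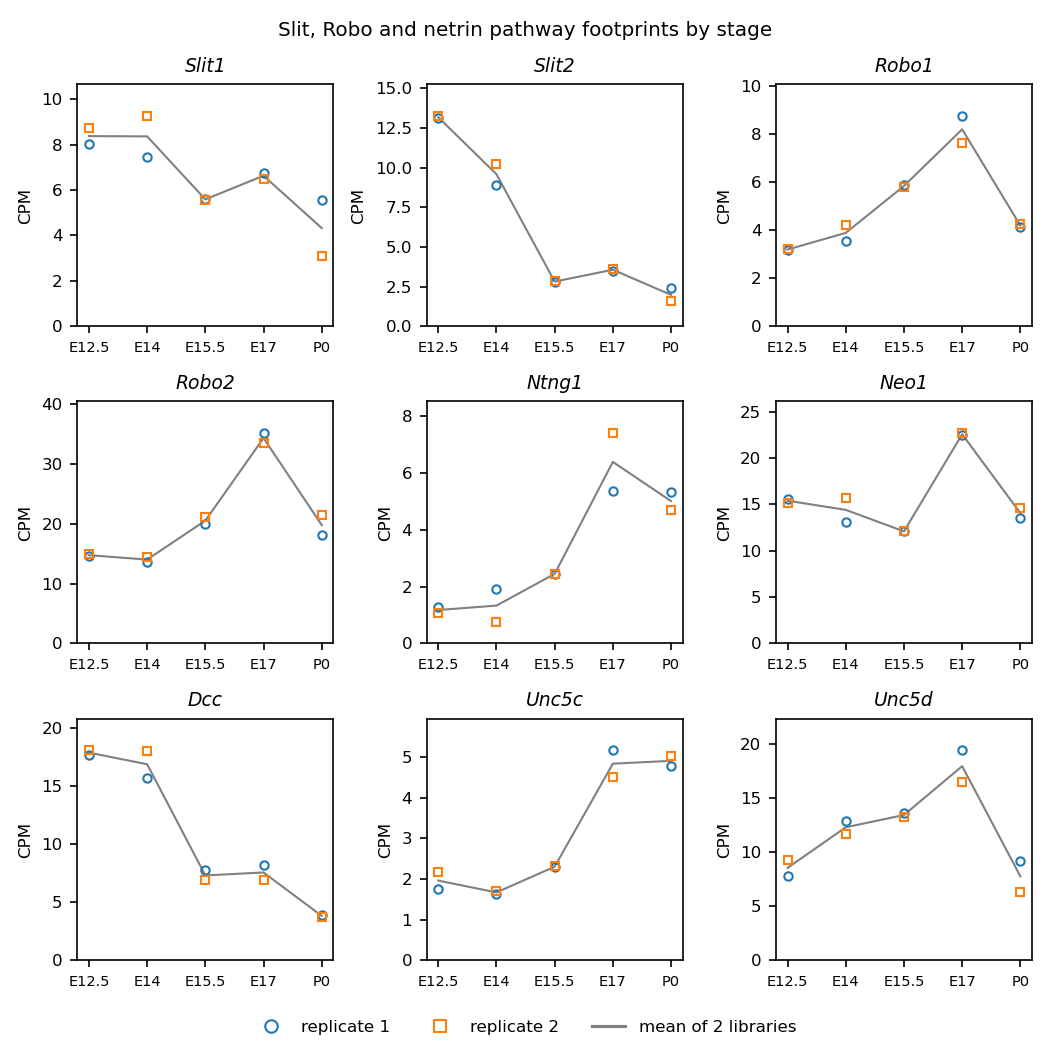
CPM (vertical axes, each from 0) of 9 Slit, Robo and netrin pathway genes at the 5 stages (horizontal axes), with circles for replicate 1, squares for replicate 2 and a line through the mean of the 2. Robo1, Robo2, Neo1 and Unc5d peak at E17, Slit2 and Dcc drop between E14 and E15.5, and the E17 and P0 points of Unc5c overlap.

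Marker genes of other cell types moved with these steps. The summed CPM of 10 endothelial genes was 40.4 to 48.0 at E14 and 12.6 to 15.3 at E15.5, with all 10 called lower, and that of 10 genes of meningeal fibroblasts was 301 to 302 at E14 and 28.3 to 29.7 at E15.5, again with all 10 lower. The 11 guidance genes that fell in the same step were Dcc, Efna1, Efna4, Efnb1, Epha3, Epha4, Epha5, Ephb4, Robo4, Slit2 and Unc5b, and 4 rose. Choroid plexus genes went from 1167 to 1172 down to 11.8 to 15.4, with 7 of 8 tested genes called lower. Red blood cell genes went from 10041 to 11056 down to 6906 to 7422, with 6 of 9 tested genes called lower and 0 higher. Microglia genes went from 31.5 to 33.7 down to 20.1 to 27.3, with 5 of 9 tested genes called lower and 0 higher. In that step all 10 genes of postmitotic neurons rose, from 3200 to 3319 up to 7588 to 7969. Of 10 progenitor genes 9 fell and 1 rose, while their sum, 2265 to 2284 at E14 and 2158 to 2343 at E15.5, overlapped. Of 10 interneuron genes 7 rose, and their sum went from 34.4 to 40.3 up to 124 to 129. From E15.5 to E17 the endothelial sum was 19.0 to 22.5 at E17, with 1 of 10 genes called higher, and that of the meninges genes was 53.9 to 60.3, with 2 of 10 higher. In the same step 3 of 10 neuron genes and 4 of 10 genes of the astrocyte and oligodendrocyte lineage rose, and 5 of 10 progenitor genes fell. The progenitor sum was nevertheless higher at E17, 2395 to 2522, than at E15.5, 2158 to 2343. From E17 to P0 the progenitor sum went from 2395 to 2522 down to 1430 to 1998, with 6 of 10 genes called lower, 4 of 10 endothelial genes fell, and the neuron sum reached 10518 to 12085. Red blood cell genes summed to 7253 to 7260 at E17 and 1439 to 1862 at P0. Of the 9 tested, 5 were called lower and 1 higher, and 9 microglia genes tested gave 0 higher and 1 lower in that step. No gene of any of these lists was at 0 in all libraries. The part of these cell types in the results above was not tested.

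**Figure D5:**
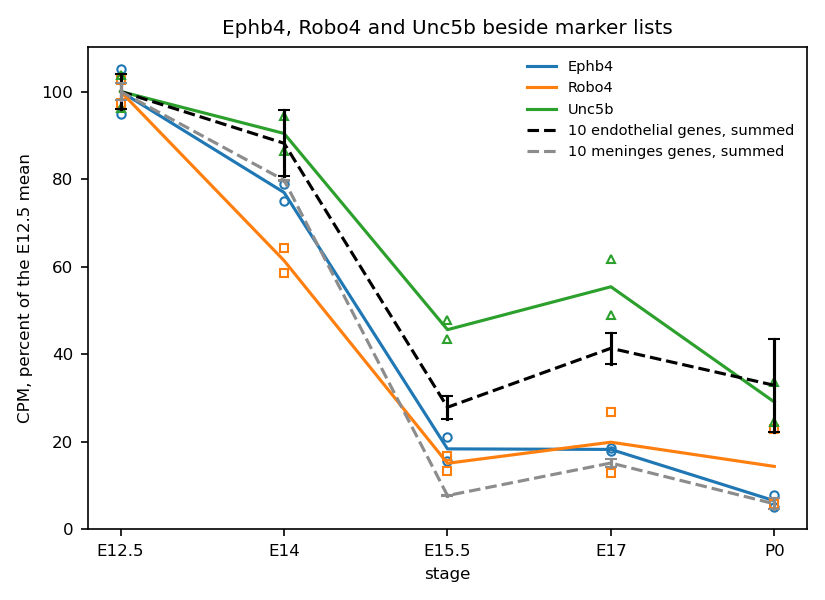
CPM as percent of the E12.5 mean (vertical axis) at the 5 stages (horizontal axis) for Ephb4, Robo4 and Unc5b, with open symbols for the 2 libraries and solid lines through their mean, and for the summed CPM of 10 endothelial and 10 meninges genes, with dashed lines through the midpoint and bars from the lower to the higher library. All 5 curves drop between E14 and E15.5, and Unc5b keeps the highest percent at E15.5.

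The proteins that carry these signals into the cell, or help the receptors bind, were taken as a separate list of 52 genes, and all 52 were tested. From E14 to E15.5, 24 rose and 6 fell, 57.7% of the list beside 36.1% of all genes (16.5% higher and 19.6% lower), with a median log2 fold change of 0.44 against -0.01. With total counts as library sizes the split was 31 and 5 at a median of 0.73, where 32.7% of all genes were called higher and 12.3% lower at a median of 0.29. From E12.5 to P0, 24 rose and 15 fell, 75% of the list beside 62.1% of all genes (30.1% higher and 32% lower), at a median of 0.50 against -0.01. With total counts the split was 35 and 9 at a median of 1.02, where 47.8% of all genes were called higher and 18.6% lower at a median of 0.51. In the other steps there were 0 calls from E12.5 to E14, 3 higher and 2 lower from E15.5 to E17 (9.62%, beside 9.04% of all genes), and 3 higher and 8 lower from E17 to P0 (21.2%, beside 20.5%).

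Of the 16 genes of Slit-Robo signalling, 8 rose and 6 fell from E12.5 to P0, 87.5% where 62.1% of all genes were called. Srgap1, a GTPase-activating protein bound to Robo receptors, had a CPM of 4.79 and 3.78 (E12.5), 5.21 and 5.32 (E14), 16.5 and 16.2 (E15.5), 14.5 and 14.6 (E17), 15.3 and 13.6 (P0), and rose by 1.76 (SE 0.14, adjusted p = 1.51e-05) on the log2 scale. Its 6 libraries from E15.5 on lay above the 4 earlier ones, and all 3 Srgap genes on the list rose from E14 to E15.5. Among heparan sulphate proteoglycans, which help Slits bind, Sdc3 rose by 1.86 (SE 0.23, adjusted p = 0.000172) while Gpc1 fell by 2.67 (SE 0.27, adjusted p = 5.05e-05) and Sdc1 fell by 1.85 (SE 0.16, adjusted p = 2.31e-05). Gpc1 had a CPM of 35.5 and 46.9 (E12.5), 32.1 and 33.5 (E14), 11.7 and 10.2 (E15.5), 12.2 and 11.6 (E17), 10.2 and 5.06 (P0), with the 4 earliest libraries above all others. Its fall was -2.00 without P0 replicate 2.

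Of the 17 genes of ephrin-Eph signalling, 10 rose and 4 fell from E12.5 to P0, 82.4% beside the 62.1% of all genes. Ngef, the exchange factor ephexin 1 that Epha4 uses to collapse growth cones, had a CPM of 0.440 and 0.449 (E12.5), 0.972 and 0.919 (E14), 2.98 and 2.998 (E15.5), 5.21 and 4.43 (E17), 12.4 and 11.8 (P0). Its libraries did not overlap between any 2 stages, and it rose in every step from E14 on, by 4.69 (SE 0.27, adjusted p = 2.82e-06) over the whole span. Grip2, a scaffold that binds ephrin-B and EphB tails, rose by 6.21 (SE 0.77, adjusted p = 0.000187), from 0.055 and 0.262 CPM at E12.5 to 14.6 and 11.3 at P0. That size was 5.47 without E12.5 replicate 1 and 7.24 without E12.5 replicate 2. Inppl1, a lipid phosphatase bound by Eph receptors, fell by 1.92 (SE 0.15, adjusted p = 1.63e-05), and Adam10, a protease that cuts ephrins, fell by 1.17 (SE 0.21, adjusted p = 0.00138).

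Of the 19 genes of netrin signalling and its co-receptors, 6 rose and 5 fell from E12.5 to P0, and this share of 57.9% was below the 62.1% of all genes. Ablim1, an actin-binding protein, had a CPM of 21.0 and 20.6 (E12.5), 31.1 and 28.7 (E14), 82.3 and 83.6 (E15.5), 109 and 111 (E17), 164 and 194 (P0), without overlap between any 2 stages, and rose by 3.10 (SE 0.11, adjusted p = 4.84e-07). Lrrc4c, the partner of netrin-G1, had a CPM of 1.16 and 1.76 (E12.5), 1.24 and 1.65 (E14), 2.83 and 2.62 (E15.5), 5.14 and 4.47 (E17), 5.87 and 8.21 (P0) and rose by 2.29 (SE 0.26, adjusted p = 0.000118), in the same direction as Ntng1. Of the Flrt family of Unc5 ligands, Flrt1 fell by 1.64 (SE 0.21, adjusted p = 0.000217) and Flrt3 fell by 1.51 (SE 0.20, adjusted p = 0.000261).

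The 8 genes left out of the tests had at most 29 footprints in any stage, summed over its 2 libraries, where the filter asked for 32. They were Slit3 with 81 footprints over all 10 libraries, Ntn1 with 94, Epha2 with 54, Epha10 with 51, Robo3 with 46, Epha8 with 37, Epha1 with 15 and Ntn5 with 10. Ntn1, the diffusible ligand of Dcc, had between 4 and 15 footprints per library, and Robo3, known from commissural axons, had 8 and 17 at E12.5 and between 1 and 6 in the later libraries. Just inside the limit were Unc5b, Ntn4 and Ephb3, with 48, 49 and 59 footprints in their highest stage. In the fit with no filter beyond 1 count, over 19369 genes, 3 of the 8 genes were called. Robo3 gave -2.32 (adjusted p = 0.0185) from E12.5 to P0, with a CPM of 0.440 and 0.636 at E12.5 above all 8 later libraries, and Slit3 gave -1.66 (adjusted p = 0.0273) from E14 to E15.5. Epha8 gave 2.37 (adjusted p = 0.0463) from E15.5 to E17 and 1.68 (adjusted p = 0.0238) from E12.5 to P0. That fit called 24.1% of all its genes from E14 to E15.5, 3.99% from E15.5 to E17 and 45.0% from E12.5 to P0. These changes rest on at most 17 footprints in a library.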

How the data were processed

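Per the study's methods, RPF reads were trimmed of adapters, duplicate sequences were collapsed, reads from tRNA, rRNA and snoRNA were filtered out by Bowtie 2, and STAR (version 2.7.0 in the submitters' processing notes, an earlier one in the methods) aligned what remained to mouse coding sequences and the genome of a GENCODE release. The authors deposited whole-number footprint counts per gene, whose totals differ between libraries. Alignment kept reads with many equally good matches, and the methods name isoform abundances from DeepShape-prime, turned into length-corrected gene counts by tximport. Whether the deposited table is that output or a plain count, and so how it shares out reads that fit several genes, is not given in the sources used here, nor is the treatment of strand. Of 22373 identifiers 22274 matched a gene symbol.

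The analysis used R 4.3.3. The filter kept the 13484 genes that reached 32 footprints, summed over the 2 libraries, in 1 or more stages. TMM factors from edgeR 4.0.16 scaled the library sizes, and limma-voom (limma 3.58.1) was fitted with 1 coefficient per stage over all 10 libraries, after the study's stated method. Moderated two-sided tests of the 5 comparisons and an F test over the stages received the Benjamini-Hochberg adjustment over all 13484 genes. Alternatives were total counts as library sizes, DESeq2 size factors, the edgeR quasi-likelihood test, DESeq2 1.42.0, other filters, a replicate block, sample quality weights, 2-stage fits and leaving out each library. The fit was also run on simulated data, with 1 spread per gene for all stages. That run lacked the wider replicate spread at P0, so it cannot speak to the calls that involve P0. No level was compared between genes, because coding lengths were not used here. One gene of the neocortex marker list is not reported here.

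Full values were given for genes called in an adjacent step or among the 12 largest called changes from E12.5 to P0, the others were given as stage means, and of the signalling lists the 2 largest rises and falls were named. The genes, lists and ratios were chosen with earlier results of these data known. Whether libraries of the same replicate number were paired is not stated. The correlation of replicate 1 deviations between 2 stages was -0.64 to 0.43, and 5 of 10 were under 0.1. Numbers could be swapped within a stage, so these values cannot decide whether libraries were paired.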

Additional observations from a re-analysis of the deposited data

How the results depend on the processing

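The 72 called changes of guidance genes and of the named signalling genes were recomputed under the alternatives. Of the 1358 values, 1197 kept their direction and their side of the threshold, 161 kept the direction but were no longer called, and 0 reversed. Uncalled changes were not among them, and those of Epha7 and Neo1 from E12.5 to P0 turned positive and were called with total counts as library sizes. The named signalling genes, the largest called changes of their lists, lost no call, so all 161 lost values belong to guidance genes. The count of called guidance genes moved in these cases. From E12.5 to E14 it was 1 with sample quality weights and 0 to 1 when 1 library was left out. From E14 to E15.5, 15 became 9 in DESeq2 and 8 to 20 with 1 library left out, lowest without E15.5 replicate 1. From E15.5 to E17, 7 became 14 with sample quality weights, 11 in the 2-stage fit and 0 to 12 with 1 library left out. From E17 to P0, 14 became 3 with sample quality weights, 0 in the 2-stage fit and 7 to 21 with 1 library left out. Ephb1, Ephb4, Ntn4, Slit1 and Slit2 lost that call without P0 replicate 2, and Efnb2, Epha3, Ephb1, Neo1, Ntn4, Slit1 and Slit2 without E17 replicate 1, and Ntn4 and Slit1 without E17 replicate 2. The share of all genes called in the last 2 steps was 27.6% and 5.18% with sample quality weights, and 23.8% and 0% in the 2-stage fit. In every comparison that share also moved with the library left out, so the ranges given here have no single background. From E12.5 to P0 the range with 1 library left out was 20 to 26 around 24, and for the F test 26 to 32 around 30. The signalling genes gave 20 to 33 around 30 from E14 to E15.5, lowest without either E15.5 library, and 35 to 42 around 39 from E12.5 to P0. The cause of these differences was not tested.

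With a replicate block the counts were 0, 13, 6, 13 and 24 in the 5 comparisons in order of stage. Of all genes tested, 0.0297%, 33.8%, 6.07%, 15.8% and 59.5% were called in the same order. The signalling genes gave 26 and 37, and the F test gave 29. The libraries share only a number, so the block is no evidence on pairing. A level scaled by coding length was not run, because no coding lengths were at hand. With 2 pools per stage, and the least depth in P0 replicate 1, changes of genes such as Unc5b, Ntn4 and Ephb3 rest on fewer than 20 footprints in a P0 library.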
